A study of Mus musculus with 16 samples.

Results

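The genes followed here are 10 core cardiac transcription factors, chosen by symbol: Gata4, Gata6, Tbx5, Tbx20, Nkx2-5, Mef2a, Mef2c, Mef2d, Hand2 and Srf. All 10 were present among the 24421 genes of the deposited table, and all 10 passed the filter on low values that left 14298 tested genes. The study measured polyA RNA from 16 adult mouse hearts in 4 groups of 4 animals, aged about 3 months and taken 2 weeks after surgery. WT sham hearts were wild type with sham surgery, and OE sham hearts overexpressed ERBB2, the receptor tyrosine kinase that takes up neuregulin signals with its partners ERBB3 and ERBB4, and also had sham surgery. WT infarcted and OE infarcted hearts had the same genotypes and a myocardial infarction (MI) made by permanently tying the left anterior descending coronary artery. No other allele or agent was shared by the groups in the labels, and the labels name neither the promoter and cell type that drive the transgene nor the species of the ERBB2 used. The series title places the comparison in the setting of cardiac regeneration, YAP activation and EMT-like change after ERBB2 activation.

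In the embryo these factors specify the heart and bind one another on shared enhancers. GATA4 and GATA6 are zinc-finger proteins, TBX5 and TBX20 carry a T-box, NKX2-5 is a homeodomain protein and HAND2 a basic helix-loop-helix protein. MEF2A, MEF2C, MEF2D and SRF share the MADS box. In the adult heart they go on driving contractile, conduction and calcium-handling genes in cardiomyocytes. GATA4, GATA6, TBX20 and HAND2 are made by cardiac fibroblasts as well, so RNA of a whole heart mixes sources. In such bulk samples fewer cells of a type and less RNA per cell cannot be told apart.

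Normalized reads below are the deposited values: each is a gene's count over the size factor of its library. Recovered depth ran from 11939093 to 17468914 reads per library, and no member had fewer than 507 reads in any library. Erbb2 separated the genotypes in every animal, with 204 to 307 normalized reads in the 8 WT hearts and 792 to 2529.9 in the 8 OE hearts. The 12 cardiomyocyte markers were all detected in every group. WT sham hearts held a summed level of 1.36444e+06 to 1.53681e+06 normalized reads, and OE sham hearts 896589 to 1.07069e+06. After infarction the sums ran from 1.23506e+06 to 1.34083e+06 without the transgene and from 843146 to 996380 with it, and none of the 12 was at 0. The 12 fibroblast markers, again with none at 0, summed to 59870 to 72556 in the WT sham group and 150180 to 179422 in the OE sham group. After infarction their sums were 108471 to 145599 (WT) and 148681 to 196056 (OE). Lung epithelial reads were present in 5 of the 8 infarcted libraries (WT replicates 2, 3 and 4, OE replicates 2 and 3), with 1097 to 5038 normalized reads of Sftpc, the surfactant protein of alveolar cells, against at most 4.63 in the other 11. Thymocyte reads were present in OE infarcted replicates 1, 3 and 4, with 162 to 422 normalized reads of the recombinase gene Rag1 against at most 5.48 elsewhere. The sham libraries held neither. Skeletal muscle reads were present in WT sham replicate 1, where 10 markers summed to 3804 normalized reads (51.1 to 128 in the other WT sham hearts) and the myosin gene Myh1 had 1032. Sums of 904 to 2015 were found in WT infarcted replicates 1 and 2 and OE infarcted replicate 1, and at most 233 in the other libraries. MEF2 genes are expressed in skeletal muscle too, and without WT sham replicate 1 the same number of members, 5, passed in sham hearts.

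Promoter sequence is shown for Hand2 and Srf, the members with the largest and the smallest fitted change in OE sham hearts. Srf held matches to the motif of its own factor, and Hand2 a match to AGATAA, a form of the site that GATA factors bind. Hand2 is at chr8:57320983-57324633 on the plus strand and Srf at chr17:46548329-46556175 on the minus strand (GENCODE, GRCm38). The 250 bases before the RefSeq start site (GRCm38.p6) are chr8:57320733-57320982 for Hand2 and chr17:46556163-46556412 for Srf, each written 5′ to 3′ on the gene's own strand. Capitals mark the AGATAA match, read here on the opposite strand, in Hand2, and the CArG boxes, the element that SRF binds, in Srf. Other forms of the GATA site, such as the unmarked tgataa in the printed Hand2 sequence, were not searched.
Hand2: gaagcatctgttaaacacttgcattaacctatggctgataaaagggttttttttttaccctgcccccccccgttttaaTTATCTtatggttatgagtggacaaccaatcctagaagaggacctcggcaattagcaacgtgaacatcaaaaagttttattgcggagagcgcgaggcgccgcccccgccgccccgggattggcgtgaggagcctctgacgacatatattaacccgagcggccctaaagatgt
Srf: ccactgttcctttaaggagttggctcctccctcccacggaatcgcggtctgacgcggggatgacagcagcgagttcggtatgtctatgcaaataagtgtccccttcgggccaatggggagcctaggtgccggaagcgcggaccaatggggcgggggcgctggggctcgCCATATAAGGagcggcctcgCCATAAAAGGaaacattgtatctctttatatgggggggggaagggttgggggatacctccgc
The Srf promoter held 2 CArG boxes, 82 to 73 and 62 to 53 bases before the start, and a CArG box was found in 1.467% of all 32851 mouse promoters of that table searched on both strands. The single AGATAA match of Hand2 lay 172 to 167 bases before the start, and 9.988% of promoters held that hexamer. The MEF2 site, by its name, and the T-box half-site AGGTGT were searched too and were found in 1.689% and 11.832% of promoters. Of the 7 members with a promoter in the table, the only further match was an AGGTGT 216 to 211 bases before one of the 3 Mef2c starts. These are matches of letters in a window and not measured binding sites.

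OE sham hearts against WT sham hearts ask what ERBB2 overexpression does without an infarct. The 10 factors divided: Hand2, Tbx5, Mef2a, Mef2d and Gata6 fell, while Gata4, Mef2c, Tbx20, Nkx2-5 and Srf had fitted values above 0 that did not pass. Hand2 fell most, from 1585 ± 277 to 825 ± 49.2 normalized reads (mean ± SD, n = 4 each). Of the 10 members 5 passed at an adjusted p below 0.05 in limma, 0 higher and 5 lower. Among all 14298 tested genes 49.3% passed, with 24.9% of tested genes higher and 24.5% lower, so a share of 5 in 10 is near the background. The median log2 fold change was -0.07 over the members and 0.01 over all tested genes.

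**Figure D1:**
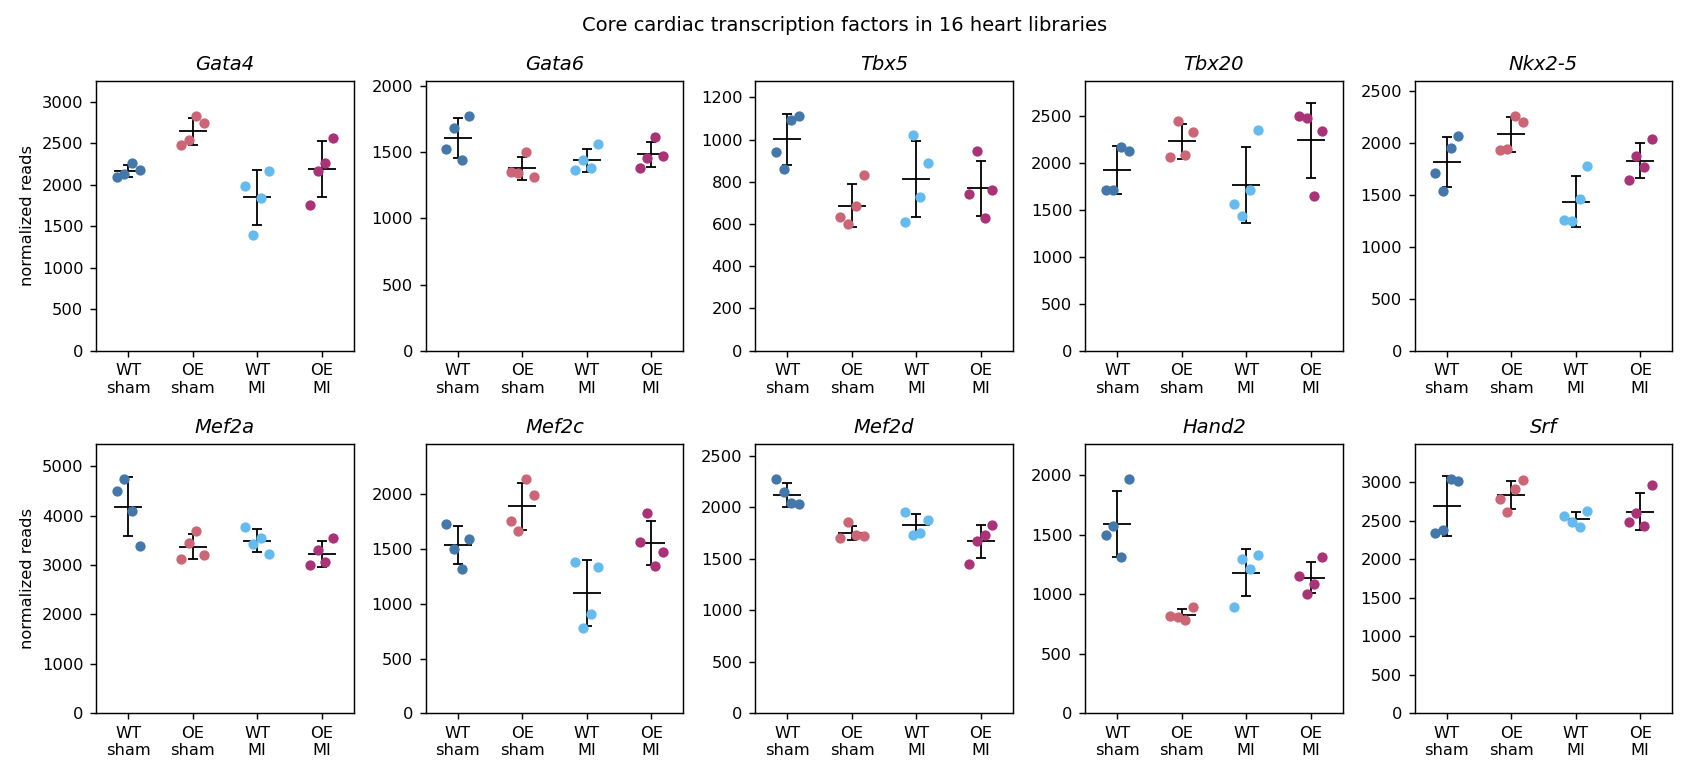
Normalized reads (linear axes from 0) of each factor in the 16 hearts, with a point per animal, a horizontal bar for the group mean and whiskers for ± 1 SD (n = 4). Hand2 lies between 781 and 895 in OE sham hearts, a range that holds only 1 value of another group (891, WT infarcted), and Gata4 lies between 2479 and 2828 in OE sham hearts against 2095 to 2262 in WT sham hearts.

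Gata4 encodes the zinc-finger factor needed for cardiomyocyte growth under load and lies at chr14:63198922-63271692 on the minus strand. It had 2095, 2134, 2262 and 2175 normalized reads in WT sham and 2479, 2544, 2828 and 2741 in OE sham hearts. Every OE sham value was above every WT sham value. The log2 fold change was 0.29 ± 0.12 (SE, limma), with an adjusted p of 0.0600. It did not pass in limma, and passed with voom (adjusted p 0.0431), with edgeR (adjusted p 0.0383) and with DESeq2 (adjusted p 0.0465).

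Gata6, at chr18:11052064-11085635 on the plus strand, encodes the second GATA factor of the myocardium. It had 1528, 1684, 1442 and 1772 normalized reads in WT sham and 1350.4, 1346, 1503 and 1312 in OE sham hearts. The groups overlapped in 1 library of each, and the fall was -0.22 ± 0.07 on the log2 scale (adjusted p 0.0226). An antisense gene, 1010001N08Rik, overlaps Gata6 and went from 182 ± 54.6 to 98.9 ± 18.2 normalized reads, and since the strand of counting is not given in the sources used here, reads of the pair cannot be told apart. The call was lost on leaving out WT sham replicate 2 or 4 or OE sham replicate 1, 2 or 4, with adjusted p values of 0.0540 to 0.0805, and with voom (0.0524) and RA numbers 1 to 12 alone (0.0813).

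Tbx5, at chr5:119832668-119885219 on the plus strand, is the T-box activator of atrial and conduction genes, mutated in Holt-Oram syndrome. It had 941, 862, 1093 and 1111 normalized reads in WT sham and 632, 600.2, 688 and 831 in OE sham hearts. All 4 OE hearts were below all 4 WT hearts. The log2 fold change was -0.55 ± 0.16 (adjusted p 0.00902), a level 0.685 times that of WT. Of 7 atrial markers, 0 were higher and 2 lower in the same comparison. One of these was Myl7, the atrial myosin light chain, at -1.30 ± 0.41 on the log2 scale. The atrial gene Bmp10, also of the 7, went the other way without passing. It had 105, 3.83, 306 and 1227 normalized reads in WT sham and 1093, 722, 511 and 1325 in OE sham hearts. The summed atrial level was 11062 to 22488 in WT sham and 12700 to 17945 in OE sham hearts, and no atrial marker was at 0 throughout a group. With the mean level of the atrial markers as a covariate, an alternative added after the data were seen, Tbx5 stood at -0.56 (adjusted p 0.000945). With RA numbers 1 to 12 alone, an unexplained number in the labels, it stood at -0.49 and the call was lost (adjusted p 0.0648). Of the sham hearts that fit holds only WT replicates 1 and 2 and OE replicates 1, 2 and 3. Tbx20, at chr9:24718138-24774303 on the minus strand, can act as a repressor and is required in adult cardiomyocytes. It had 1707, 1711, 2171 and 2125 normalized reads in WT sham and 2063, 2444, 2082 and 2333 in OE sham hearts, ranges that overlapped, and its log2 fold change was 0.22 ± 0.15 (adjusted p 0.260). WT replicates 1 and 2 (RA 1 and 2) were below every OE heart. WT replicates 3 and 4 (RA 14 and 15) lay inside the OE range.

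Nkx2-5, at chr17:26838664-26845009 on the minus strand, is the homeodomain partner of GATA4 and TBX5. Its normalized reads were 1708, 1536, 1955 and 2072 in WT sham and 1933, 1944, 2259.7 and 2200.1 in OE sham hearts. The groups overlapped, and the log2 fold change was 0.20 ± 0.12 (adjusted p 0.163). Here too WT replicates 1 and 2 (RA 1 and 2) were below every OE heart, and WT replicates 3 and 4 (RA 14 and 15) were not. Nkx2-5 passed in limma with the replicate numbers as a block (adjusted p 0.0408) and with RA numbers 1 to 12 alone (0.33, adjusted p 0.0334).

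The MADS-box genes went different ways. Mef2a, at chr7:67231163-67372858 on the minus strand, encodes the main MEF2 factor of the adult myocardium in mice. It had 4503, 4741, 4083 and 3391 normalized reads in WT sham and 3132, 3452, 3689 and 3204 in OE sham hearts, and fell by 0.30 ± 0.10 on the log2 scale (adjusted p 0.0153). WT sham replicate 4 lay inside the OE range. Without WT sham replicate 2 its value was -0.24 (adjusted p 0.0588), and without WT sham replicate 1, the library with skeletal muscle reads, -0.26 (0.0492). Lysmd4 overlaps Mef2a on the opposite strand and had 403 ± 64.8 against 261 ± 32.2 normalized reads. Mef2d, at chr3:88142372-88172086 on the plus strand, is the MEF2 factor tied to stress-dependent remodeling in mouse hearts. It had 2277, 2147, 2039.7 and 2028 normalized reads in WT sham and 1703, 1855, 1735 and 1723 in OE sham hearts, without overlap, and fell by 0.27 ± 0.07 (adjusted p 0.00438). The gene 1700113A16Rik overlaps Mef2d on the opposite strand and is not analysed here. Mef2c, at chr13:83504034-83667080 on the plus strand, is required for looping of the embryonic heart. It had 1729, 1494, 1319 and 1590.0 normalized reads in WT sham and 1754, 1663, 2136 and 1986 in OE sham hearts. These ranges overlapped, and its log2 fold change was 0.30 ± 0.16 (adjusted p 0.140). Mef2c passed in limma with the 2 sham groups fitted alone (adjusted p 0.0297).

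Srf, the factor that reads serum and actin signals through CArG boxes such as those in its own promoter above, had 2339.9, 2377, 3043 and 3014 normalized reads in WT sham and 2785, 2613, 2913 and 3032 in OE sham hearts. The WT hearts spanned the whole OE range, and the log2 fold change was 0.08 ± 0.09 (adjusted p 0.468). That WT spread was split by RA number. WT replicates 1 and 2 (RA 1 and 2) were below every OE heart, at 2339.9 and 2377. WT replicates 3 and 4 (RA 14 and 15) had 3043 and 3014, and the highest OE heart, 3032, had RA 17. The part of the RA number in these values was not tested.

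Hand2, the right-ventricular and second-heart-field factor of the embryo, had 1493, 1574, 1308 and 1966 normalized reads in WT sham and 814, 808, 781 and 895 in OE sham hearts. The 4 OE hearts lay close together and far below the 4 WT hearts. The log2 fold change was -0.93 ± 0.13 (adjusted p 3.26e-05), a level 0.526 times that of WT, and it stayed between -1.02 and -0.82 with any 1 library left out. Hand2os1 overlaps Hand2 on the opposite strand and is not analysed here. Of the members, 1 had every OE sham value above every WT sham value (Gata4) and 3 had every value below (Tbx5, Mef2d and Hand2). Such groups without overlap were found for 48.7% of tested genes, 24.3% in each direction.

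**Figure D2:**
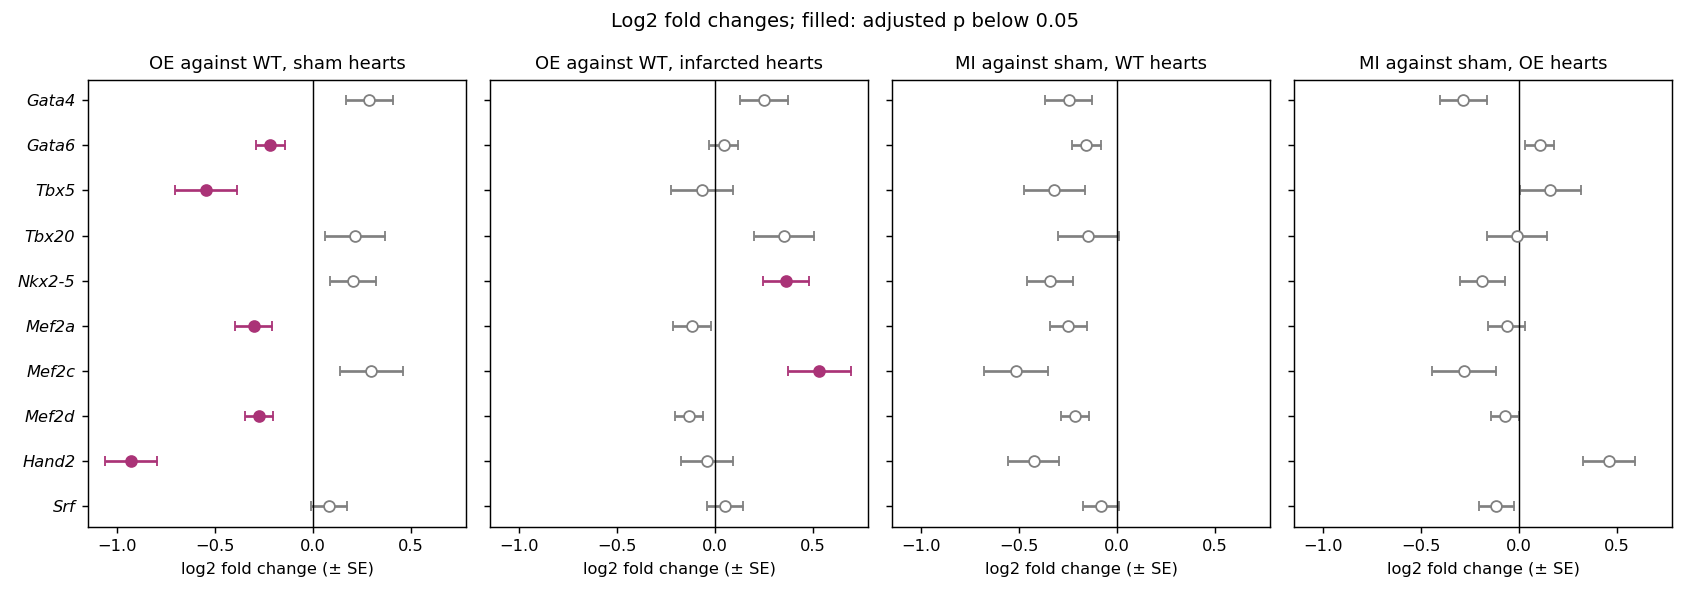
Log2 fold change of each factor in the 4 pairwise comparisons, with bars for ± 1 SE from limma and filled points for an adjusted p below 0.05. In sham hearts 5 points are filled, all below 0, with Hand2 at -0.93. In infarcted hearts Mef2c (0.53) and Nkx2-5 (0.36) are filled, and the 2 right-hand panels hold no filled point.

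Differences between members were the same however libraries were scaled, but the calls were not. The deposited size factors were 0.774 to 0.935 in WT sham and 1.05 to 1.25 in OE sham libraries. Scaling by library totals in their place raised the median log2 fold change of all tested genes from 0.01 to 0.17, and the share of calls that were higher rose with it, with 3554 higher and 3497 lower calls under size factors and 5166 higher and 2379 lower under totals. Of the members, 4 then passed upward: Gata4 at 0.44 (adjusted p 0.00611), Mef2c at 0.45 (0.0378), Nkx2-5 at 0.36 (0.0238) and Srf at 0.24 (0.0416). Hand2 alone passed under both scalings, at -0.77 under library totals (adjusted p 0.000216), while Tbx5 stood at -0.39 (0.0656), Mef2a at -0.15 (0.169), Mef2d at -0.12 (0.168) and Gata6 at -0.06 (0.507). No member changed sign in sham hearts, and the members' median went from -0.07 to 0.09. Measured from the median of all genes, Hand2 was at -0.94 and Gata4 at 0.28 under either scaling.

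**Figure D3:**
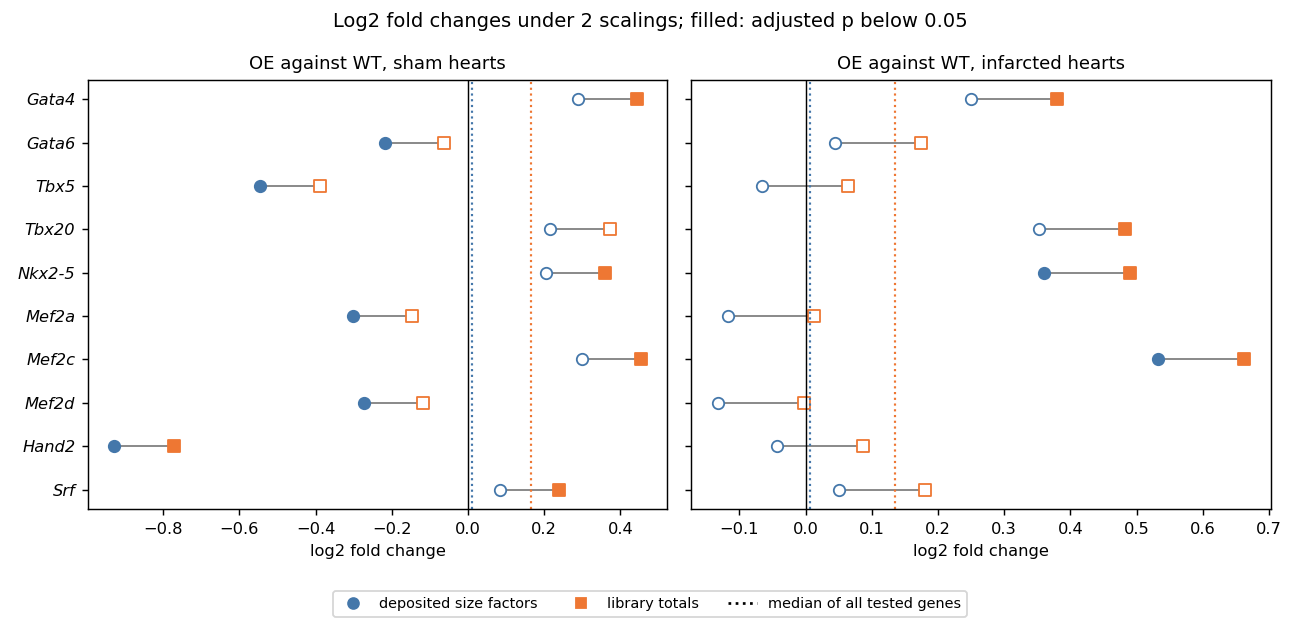
Log2 fold change of OE against WT for each factor under the deposited size factors (circles) and under library totals (squares), with the median of all tested genes dotted and filled marks for an adjusted p below 0.05. Every mark moves right by about the same amount under library totals. In sham hearts only Hand2 is filled in both.

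A ratio of 2 members in the same library is free of that scaling. In sham hearts 4 of the 6 ratios compared, of pairs chosen by hand, had groups without overlap. Of single tested genes 48.7% had such groups. The share among ratios of other gene pairs was not computed, so these counts of ratios have no background to be read against. Gata6 was 0.729, 0.789, 0.638 and 0.815 times Gata4 in WT sham and 0.545, 0.529, 0.532 and 0.479 times in OE sham hearts. Tbx5 was 0.551, 0.504, 0.503 and 0.523 times Tbx20 in WT sham and 0.306, 0.246, 0.330 and 0.356 times in OE sham hearts. Every OE sham heart thus held less Gata6 relative to Gata4, and less Tbx5 relative to Tbx20, than any WT sham heart. Mef2c was 0.384, 0.315, 0.323 and 0.469 times Mef2a in WT sham and 0.560, 0.482, 0.579 and 0.620 times in OE sham hearts. Hand2 was 0.874, 1.02, 0.669 and 0.949 times Nkx2-5 in WT sham and 0.421, 0.415, 0.346 and 0.407 times in OE sham hearts. For each of these 4 the exact 2-sided permutation p was 0.0286, the smallest that 4 against 4 allows, and the p adjusted over 24 ratio comparisons was 0.0857. With that floor an adjusted p below 0.05 would have needed 14 of the 24 at the smallest p, and 8 reached it. Mef2d kept step with Mef2a, at a geometric mean of 0.512 times in WT sham and 0.522 times in OE sham hearts (difference 0.03 on the log2 scale, exact permutation p 0.743). Srf over Mef2a overlapped between the groups, at geometric means of 0.645 and 0.842 times (exact permutation p 0.114).

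**Figure D4:**
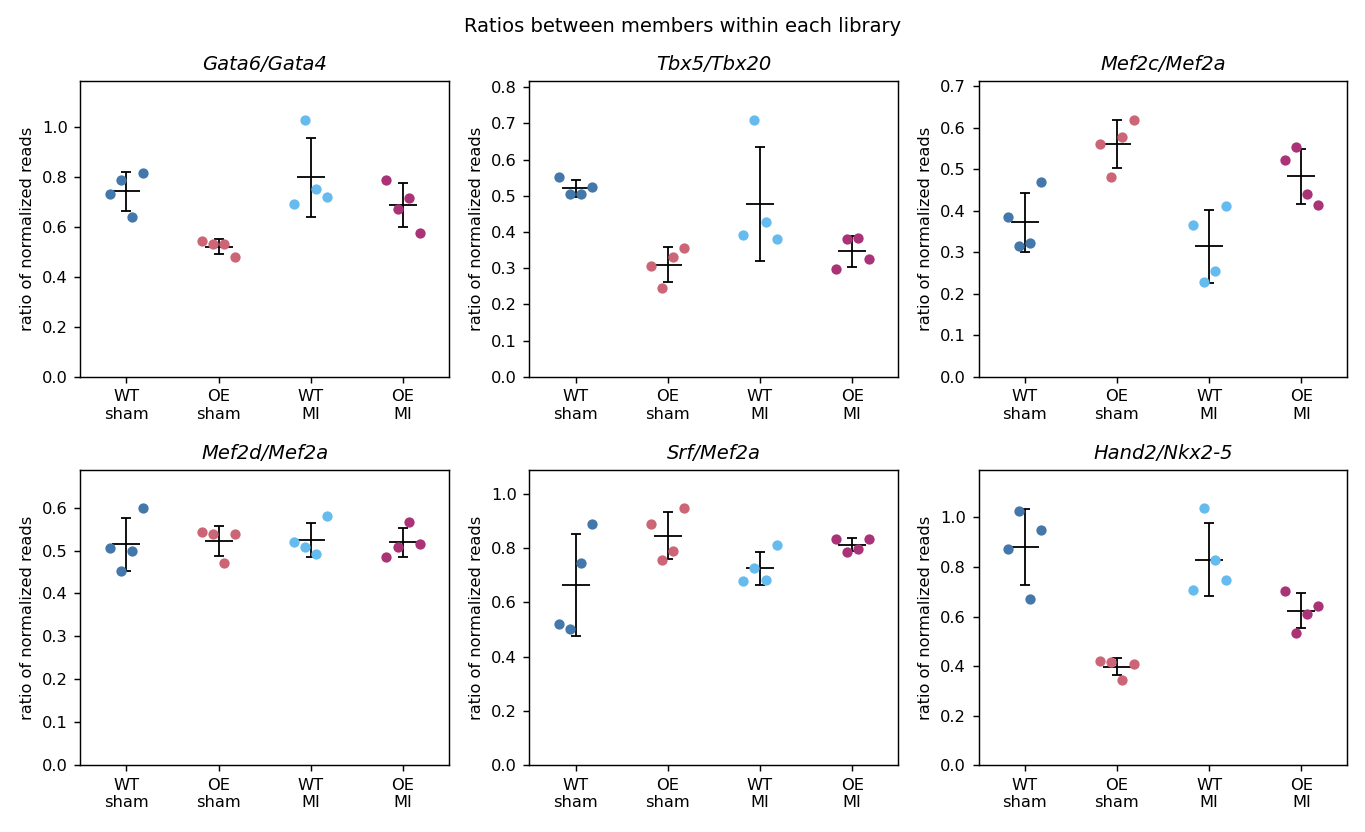
Ratio of normalized reads of 2 factors in each library (linear axes from 0), with a point per animal, the group mean and ± 1 SD (n = 4). Gata6/Gata4, Tbx5/Tbx20 and Hand2/Nkx2-5 are lower and Mef2c/Mef2a higher in every OE sham heart than in every WT sham heart, and Mef2d/Mef2a overlaps in all groups.

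OE infarcted hearts against WT infarcted hearts ask for the effect of the transgene after injury. Mef2c and Nkx2-5 rose, and the other 8 did not pass. In this comparison 31.9% of all tested genes passed, with 15.5% of tested genes higher, beside 2 of 10 members, both higher. Mef2c had 1379.8, 777, 906 and 1329 normalized reads in WT infarcted and 1561, 1829, 1347 and 1472 in OE infarcted hearts. WT replicates 2 and 3 were the low ones and the groups overlapped by 1 library each. The log2 fold change was 0.53 ± 0.16 (limma, adjusted p 0.0195). Nkx2-5 had 1261, 1246, 1466 and 1777 normalized reads in WT infarcted and 1642, 1877, 1771 and 2038 in OE infarcted hearts, a log2 fold change of 0.36 ± 0.12 (adjusted p 0.0272). No member separated the groups without overlap, against 26.6% of tested genes. The ratio of Mef2c to Mef2a did so, at 0.366, 0.227, 0.255 and 0.411 in WT infarcted and 0.522, 0.554, 0.441 and 0.415 in OE infarcted hearts, as did that of Hand2 to Nkx2-5, at 0.707 to 1.04 and 0.535 to 0.702 (exact permutation p 0.0286 each, adjusted p 0.0857). In the 3 infarcted hearts without lung reads, WT replicate 1 and OE replicates 1 and 4, Mef2c to Mef2a was 0.366 against 0.522 and 0.415, and Hand2 to Nkx2-5 was 0.707 against 0.702 and 0.644.

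These calls rested on few libraries. Leaving out the 5 libraries that hold lung reads left 1 WT and 2 OE infarcted hearts, and the fit assumes that the lone WT heart varies like the other groups. Mef2c then stood at 0.14, Nkx2-5 at 0.54 and Tbx20 at 0.63. Both OE hearts left held thymocyte reads, with 256 and 162 normalized reads of Rag1 against 0 in the WT heart. Genotype and thymocyte reads therefore cannot be told apart in that fit. WT replicate 1 and OE replicate 1 also held skeletal muscle reads. Leaving out WT infarcted replicate 2 alone gave 0.38 for Mef2c (adjusted p 0.0662) and 0.30 for Nkx2-5 (0.0855), and leaving out WT infarcted replicate 3 or OE infarcted replicate 2 also ended the call of Mef2c, at 0.45 each (0.0612 and 0.0538). Nkx2-5 lost its call without WT infarcted replicate 1 (0.30, adjusted p 0.0844) or OE infarcted replicate 4 (0.31, 0.0820). Without WT infarcted replicate 4, in contrast, 4 members passed, with Gata4 at 0.33 (adjusted p 0.0486) and Tbx20 at 0.50 (0.0123) added. With the levels of lung and thymocyte markers as covariates, Mef2c stood at 0.83 (adjusted p 0.0406) and Nkx2-5 at 0.42, where its call was lost (0.219). Under library totals, which moved the median of all genes from 0.01 to 0.14, Gata4 (0.38, adjusted p 0.0219) and Tbx20 (0.48, 0.0312) passed beside Mef2c and Nkx2-5.

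Of the 5 factors that fell in sham hearts, none passed in infarcted hearts, where their fitted values lay between -0.13 and 0.04. Hand2 had 891, 1291, 1212 and 1328 normalized reads in WT infarcted and 1153, 1004, 1083 and 1312 in OE infarcted hearts, with a log2 fold change of -0.04 ± 0.13 (adjusted p 0.841). Its sign turned under library totals, to 0.09, and without the lung libraries, to 0.47 (adjusted p 0.109). Tbx5 had 611, 1022, 729 and 890.0 in WT infarcted and 743, 944, 630.4 and 761 in OE infarcted hearts, at -0.07 ± 0.16 (adjusted p 0.787), with 0.06 under library totals and 0.30 without the lung libraries (adjusted p 0.306). The lowest of these WT hearts, replicate 1, also held the lowest atrial marker sum of the 16, 6716, with the atrial gene Bmp10 at 0. Gata6 ran from 1369 to 1559.9 without the transgene and from 1384 to 1616 with it (0.04 ± 0.07). Mef2a ran from 3232 to 3769.5 and from 2991 to 3550.2 (-0.12 ± 0.10, and 0.01 under library totals). Mef2d ran from 1736 to 1956 and from 1451 to 1832 (-0.13 ± 0.07). Of the remaining members, Gata4 spanned 1398 to 2172 in WT infarcted hearts and 1757 to 2567 with the transgene (0.25 ± 0.12, adjusted p 0.132), Tbx20 from 1439 to 2347 and 1648 to 2498 (0.35 ± 0.15, 0.0933), and Srf from 2422 to 2626 and 2432 to 2960.0 (0.05 ± 0.09, 0.717).

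WT infarcted against WT sham hearts ask what the infarct does to the factors without the transgene. All 10 fitted values were below 0, from -0.52 to -0.08, and 0 of 10 passed in limma, where 7.05% of all tested genes did (4.96% higher and 2.09% lower). At an unadjusted p below 0.05 there were 6 members of 10, beside 26.1% of all tested genes. The lowest adjusted p values belonged to Hand2 at -0.43 ± 0.13 (0.0604), Mef2c at -0.52 ± 0.16 (0.0623), Mef2d at -0.22 ± 0.07 (0.0700) and Nkx2-5 at -0.34 ± 0.12 (0.0781). The WT sham and WT infarcted ranges overlapped for every member but Mef2d, whose 1736 to 1956 normalized reads after infarction were all below the 2028 to 2277 of WT sham hearts, as in 7.83% of tested genes (7.78% had groups without overlap in the other direction). DESeq2 called 3 members (Hand2, Mef2c and Mef2d, adjusted p 0.0281 to 0.0407), and edgeR and voom called 0. The authors' deposited table held a single member, Hand2, that had an adjusted p below 0.05 (0.0375), beside 7.38% of its 19584 genes with an adjusted p. Without the lung libraries, which leaves 1 WT infarcted heart, again 0 members passed in limma. Hand2 was then at -0.82 (adjusted p 0.226), Mef2c at -0.14 (0.839), Mef2d at -0.12 (0.832) and Nkx2-5 at -0.52 (0.434). Since WT sham hearts are the controls both here and for OE sham hearts, values of the pair of comparisons share 4 libraries. For Hand2 they were -0.93 for the transgene and -0.43 for the infarct, and for Gata4 0.29 and -0.25.

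OE infarcted against OE sham hearts showed no member that passed: 0 of 10 in limma, in edgeR, in DESeq2 and in voom, and 0 of 10 in the authors' deposited table. All tested genes gave 0.00699% passing, and 2 of 10 members had an unadjusted p below 0.05, beside 10.1% of all tested genes. Of the 19584 genes with an adjusted p in the authors' deposited table, 0.434% passed. Hand2 was 0.46 ± 0.13 higher on the log2 scale (adjusted p 0.347), and its 1004 to 1312 normalized reads in OE infarcted hearts were all above the 781 to 895 of OE sham hearts, as in 2.29% of tested genes (5.05% in either direction, 2.76% lower). Gata4 was -0.29 ± 0.12 (adjusted p 0.473) with overlapping groups. Without the lung libraries Hand2 was at 0.58 (adjusted p 0.174) and Gata4 at -0.32 (0.426). The Hand2 to Nkx2-5 ratio was 0.702, 0.535, 0.612 and 0.644 in OE infarcted hearts, all above the 0.346 to 0.421 of OE sham hearts (exact permutation p 0.0286, adjusted p 0.0857). The Gata6 to Gata4 ratio, 0.574 to 0.788 in OE infarcted hearts, was likewise above the 0.479 to 0.545 of OE sham hearts in every animal, with the same p.

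The interaction, the infarct effect in OE hearts minus that in WT hearts, asks whether transgene and infarct add up. In limma 0 of 10 members passed, beside 0.0839% of tested genes (0.0769% below 0), and 3 of 10 members had an unadjusted p below 0.05, beside 9.90% of all tested genes. Hand2 had the largest value, 0.89 ± 0.19 (adjusted p 0.0896), Tbx5 was at 0.48 ± 0.22 (0.495) and Gata6 at 0.26 ± 0.10 (0.414). Hand2 passed with DESeq2 (0.89, adjusted p 0.00224), and over all alternatives its adjusted p ran from 0.00224 to 0.210. Without the 5 libraries that hold lung reads its value was 1.39 (adjusted p 0.104).

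Among the 29 other transcription factors of the cardiac lineage on a list, 24 were tested, and in OE sham hearts 3 rose and 12 fell, with a median of -0.33 beside 0.01 for all genes. Hopx, a homeodomain protein without DNA binding that restrains SRF, fell from 3648 ± 570 to 692 ± 111 normalized reads (-2.40 ± 0.15, adjusted p 4.14e-08), and the ventricular factor Irx4 fell by 0.85 ± 0.25 (0.00933). Heyl, a Notch target, rose by 1.08 ± 0.21 (0.000639). Under library totals 4 rose and 6 fell. Of all tested genes 49.3% passed in sham hearts and 31.9% in infarcted hearts. With the lung and thymus covariates the number of all genes called in infarcted hearts went from 4554 to 856. The counts of this list and of those below stand beside these values. In infarcted hearts 1 rose and 4 fell, against 0 and 5 without the lung libraries and 0 and 1 with the lung and thymus covariates.

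Cofactors and repressors of the members also divided, with 4 of 18 higher and 10 lower in OE sham hearts (5 and 5 under library totals) and a median of -0.27. Fhl2, a LIM protein that binds SRF, went from 26047 ± 2514 to 9365 ± 1552 normalized reads (-1.49 ± 0.13, adjusted p 3.34e-07). Smyd1, a methyltransferase of muscle and a known target of MEF2C, fell by 0.62 ± 0.09 (3.15e-05), and Hdac9, a class II deacetylase that represses MEF2, by 0.68 ± 0.23 (0.0235). Camta1, of a family of coactivators of NKX2-5, rose by 0.60 ± 0.12 (0.000691) and Zfpm1, a GATA partner, by 0.45 ± 0.12 (0.00636). In infarcted hearts 3 rose and 5 fell, against 2 and 2 without the lung libraries and 0 and 1 with the covariates.

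Some listed target genes of the members had larger fitted values than any member. Of 18 listed targets of GATA4, NKX2-5 and TBX5, 3 rose and 9 fell in OE sham hearts (6 and 8 under library totals). Natriuretic peptide genes rose, Nppb by 3.19 ± 0.40 (adjusted p 1.01e-05) and Nppa by 2.93 ± 0.33 (4.15e-06). The calcium pump gene Atp2a2 (-1.77 ± 0.16, 6.46e-07) and its regulator Pln (-1.58 ± 0.17, 2.18e-06) fell. Of 14 MEF2 targets 4 rose and 8 fell, among them Xirp2, an intercalated disc protein, at 2.11 ± 0.33 (7.83e-05) and muscle creatine kinase, Ckm, at -1.84 ± 0.11 (3.07e-08). Of 22 SRF targets 13 rose and 3 fell, with a median of 0.73, while Srf itself did not pass. The immediate-early genes Egr2 (4.21 ± 0.54, adjusted p 1.18e-05) and Egr1 (3.45 ± 0.49, 3.34e-05) and the matricellular gene Ctgf (2.85 ± 0.41, 3.68e-05) rose, and the smooth muscle actin gene Acta2 (-1.03 ± 0.28, 0.00579) fell. Among the fibroblast markers, 9 of 12 rose and 1 fell in the same hearts, and among the cardiomyocyte markers 1 of 12 rose and 8 fell. The part of these cell types in the members' and targets' values was not tested. The lists share genes, so their counts are not separate results. Myh6, Actc1, Ryr2, Tnni3, Tnnc1, Tnnt2, Myl2 and Myl3 are both cardiomyocyte markers and listed GATA4, NKX2-5 and TBX5 targets. The cardiomyocyte marker Mb is also a listed MEF2 target, and Fhl2 is both a listed cofactor and a listed SRF target.

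**Figure D5:**
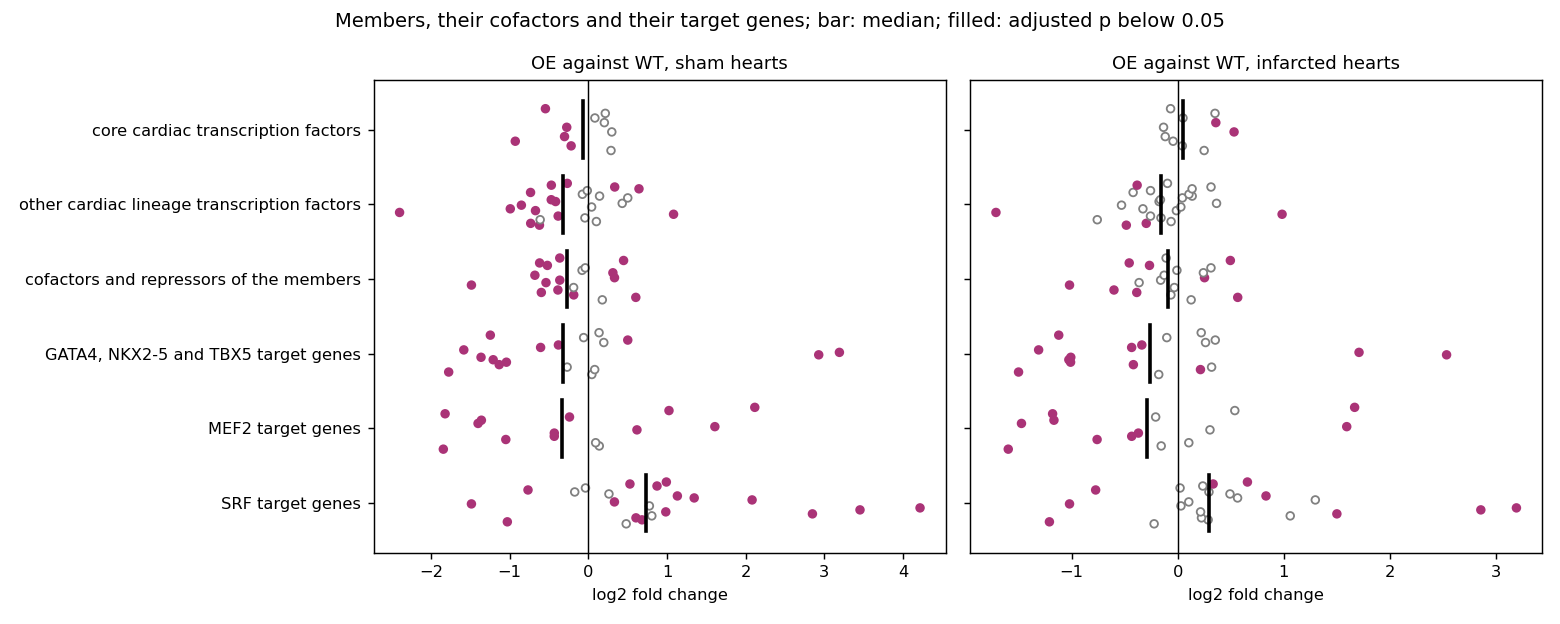
Log2 fold change of OE against WT for each gene of 6 lists in sham (left) and infarcted hearts (right), with filled points for an adjusted p below 0.05 in limma and a bar at each list's median. In sham hearts the core factors lie between -0.93 and 0.30, and SRF target genes reach 4.21 with a median of 0.73.

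In infarcted hearts 3 of the 18 GATA4, NKX2-5 and TBX5 targets rose and 9 fell, 2 of the 14 MEF2 targets rose and 7 fell, and 6 of the 22 SRF targets rose and 3 fell. The SRF target median there was 0.29, beside 0.01 for all genes. Without the lung libraries the counts of higher and lower genes were 1 and 6 for the GATA4, NKX2-5 and TBX5 targets, 2 and 5 for the MEF2 targets, and 10 and 1 for the SRF targets with a median of 0.68. With the lung and thymus covariates they were 1 and 5, 0 and 3, and 0 and 2, with an SRF target median of 0.13. In WT infarcted against WT sham hearts few target genes passed: 0 rose and 2 fell of the GATA4, NKX2-5 and TBX5 targets (Ryr2 and Kcnh2), 0 of the MEF2 targets passed in limma, and 1 SRF target rose (Tpm4). None of these passed without the lung libraries or with the covariates, and the SRF target median went from 0.30 to -0.03 without those libraries.

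Levels can be compared between members only per length of transcript. On the scale of reads as CPM per kilobase of exon in WT sham hearts, Nkx2-5 stood at 75.2 ± 10.4, Srf at 64.9 ± 9.32, Hand2 at 42.5 ± 7.27, Gata4 at 40.2 ± 1.44, Gata6 at 31.3 ± 2.60 and Tbx5 at 16.04 ± 2.01 (SD, n = 4). The mean ± SD ranges of Nkx2-5 and Srf overlapped, as did those of Hand2 and Gata4. Both genes of a pair were measured in the same 4 libraries, so such an overlap does not show equal levels, and the order within each pair was not tested. Mef2c lay at 30.5 by the length of all its exons together and at 37.4 by its shortest RefSeq transcript, near Gata6. By the same pair of lengths Mef2a lay at 46.3 and 98.9, Mef2d at 24.1 and 75.8 and Tbx20 at 12.7 and 67.5, and their transcripts differ so much in length that no place in the order is given. In OE sham hearts Hand2 fell to 24.7 on that scale and Nkx2-5 stood at 96.1. CPM scales by library totals, under which the median log2 fold change of all tested genes was 0.17 in sham hearts. Under the deposited size factors Nkx2-5 stood at 0.20 and did not pass (limma, adjusted p 0.163). By raw share the members were well detected, each with a mean above that of 85.4% to 97.3% of the genes in the table.

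Across the 16 libraries Srf varied least, with a highest value 1.30 times its lowest, and Mef2c most, at 2.75 times. A group of 4 members had their lowest value of all in WT infarcted replicate 2: Gata4, Tbx20, Nkx2-5 and Mef2c, and this library also held the most Sftpc. The genes most like each member over the 16 libraries, by Pearson r on log2(value + 1) among 10398 genes with a mean of at least 100, were Slc35f6 for Gata4 (0.93), Dcaf5 for Mef2c (0.94), Tomm40l for Mef2d (0.94), Otud4 for Mef2a (0.93), Arhgef10l for Nkx2-5 (0.91), Slc38a9 for Tbx5 (0.87), Mypop for Tbx20 (0.87), Ccdc94 for Srf (0.86), Marf1 for Hand2 (0.85) and E130309D02Rik for Gata6 (0.76). Such r values describe these 16 libraries, which differ in genotype, surgery, depth and size factor, so they carry differences between the groups too. Hand2 was among the 3 genes most like Gata6 (0.72), the only member to appear in the list of another. Some other pairs of members had a higher r, though genes outside the set ranked above them. Among these were Gata4 with Nkx2-5 (0.85), Mef2a with Mef2d (0.82) and Gata4 with Mef2c (0.79).

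In the authors' deposited table the OE against WT comparison in sham hearts had the same 5 members below an adjusted p of 0.05, beside 35.6% of its 19584 genes with an adjusted p, with Hand2 at 2.39e-10 and a log2 fold change of -0.94. The comparison in infarcted hearts had Mef2c (0.0159) and Nkx2-5 (0.0256), beside 23.2%.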

How the data were processed

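The authors trimmed single reads with cutadapt, sub-sampled the reads at random, aligned them to mm10 with TopHat2 2.0.10, counted them per gene with HTSeq-count 0.6.1p1 and tested them with DESeq2 1.6.3, per the series' design text and the submitters' processing notes. Values for each animal are deposited as signal: each gene's count over a library size factor. Taken back to reads, 100.0% of values came out whole within a tolerance of 0.001. The deposited table also gives the authors' log2 fold changes, linear ratios, p-values and adjusted p-values, and fold changes with a sign. Strand of counting is not given in the sources used here. Unmapped per-sample columns numbered 0.

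The 14298 genes that reached 10 normalized reads in 4 or more libraries were analysed with limma 3.58.1 (trended variance, R 4.3.3) on log2(value + 1), which understates changes of low genes, over all 16 libraries in 4 groups, with Benjamini-Hochberg adjustment over all tested genes per comparison. Replicate numbers did not pair the samples. Ratios were compared by exact permutation. Alternatives were other pseudocounts (0.5 and 10), no filter, library totals, voom, edgeR 4.0.16 and DESeq2 1.42.0 on the recovered reads, the replicate block, fits of subsets, covariates for foreign tissue and each library left out. On the recovered reads edgeR called 7067 genes for OE against WT in sham hearts and 4574 in infarcted hearts. The code was tested on simulated data. Tables and plots used Python 3.11.15, pandas 2.3.3 and matplotlib 3.10.9.

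The members and all gene lists were chosen with earlier results of these data known. Named beside the 10 members are Erbb2, up to 3 genes per list, direction and comparison with the largest change among those that passed and had a mean of at least 50 in the higher group, and the genes most like each member. Of 200 listed genes 198 were found. Coordinates are from GENCODE on GRCm38, promoters from RefSeq on GRCm38.p6.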

Additional observations from a re-analysis of the deposited data

Results flagged for a closer look

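A value that stood far from the other 3 of its group was looked for in 40 groups of member values and 24 groups of ratios, with Dixon's test, which marks about 1 in 20 such groups by chance. None of the 40 and 2 of the 24 were marked. The Tbx5 to Tbx20 ratio was 0.710 in WT infarcted replicate 2, against 0.379 to 0.427 in the other WT infarcted hearts. That library also held 5038 normalized reads of the lung gene Sftpc and the largest summed atrial marker level of the 16, 30395, and their part in the ratio was not tested. The Mef2d to Mef2a ratio was 0.470 in OE sham replicate 3, against 0.537 to 0.544 in the other OE sham hearts.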

How the results depend on the processing

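Of 800 member results with 1 library left out, 757 kept their direction and side of the threshold, and of 640 under the other settings, 577 did. The calls limited most were those of the infarcted hearts. The number of members called for OE against WT in infarcted hearts, 2, became 4 under library totals, 0 with the 2 groups alone, 1 with covariates for lung and thymus reads, 1 without the libraries holding lung reads, and 0 to 4 with 1 library left out. For sham hearts, 5, it ran from 3 (without WT sham replicate 2, which lost Mef2a and Gata6) to 6 with 1 library left out, and from 4 to 7 over the other settings. For the infarct in WT hearts, 0, it became 3 with DESeq2, 2 with the atrial covariate, and 0 to 2 with 1 library left out (2 without WT infarcted replicate 1 or 4). The interaction, 0, became 1 with DESeq2. Under the replicate block, whose numbers share only a number between groups, it became 2 for the infarct in WT hearts (Nkx2-5 and Hand2) and 1 for the interaction (Hand2, adjusted p 0.0493), and 7 in sham hearts.

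Genes called for OE against WT in infarcted hearts, 4554, became 856 with the lung and thymus covariates and 2971 without the libraries holding lung reads. For the infarct in WT hearts, 1008, they became 453 with voom, 1732 with DESeq2, 606 with the 2 groups alone, 112 with RA numbers 1 to 12 alone, 19 with the lung and thymus covariates and 5 without the lung libraries, and 276 (without WT sham replicate 2) to 1871 (without WT infarcted replicate 1). For the infarct in OE hearts, 1, they became 2 with voom, 78 with DESeq2, 39 without the lung libraries, 0 with the replicate block, the 2 groups alone, RA 1 to 12 and the covariates, and 0 to 10 with 1 library left out. For the interaction, 12, they became 149 with DESeq2, 20 with the replicate block, 0 with RA 1 to 12, 157 with the covariates, 2 without the lung libraries, and 1 to 52 with 1 library left out.

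Signs turned only for values that did not pass. For OE against WT in infarcted hearts Tbx5 turned to 0.064 (library totals), 0.21 (lung and thymus covariates) and 0.30 (no lung libraries), with -0.19 to 0.052 leaving out 1 library. Mef2a turned to 0.013 (library totals), and Hand2 to 0.087 (library totals), 0.020 (RA 1 to 12) and 0.47 (no lung libraries), with -0.17 to 0.020. Srf ran from -0.0097 to 0.085. For the infarct in WT hearts Srf turned to 0.077 (RA 1 to 12) and 0.0086 (covariates). For the infarct in OE hearts Tbx20 turned to 0.032 (library totals), 0.0085 (edgeR), 0.0091 (DESeq2), 0.014 (RA 1 to 12), 0.27 (covariates) and 0.12 (no lung libraries), with -0.067 to 0.13, and the covariates turned Mef2a to 0.080, Mef2c to 0.22 and Srf to 0.050. For the interaction Gata4 turned to 0.029 (RA 1 to 12) and 0.0071 (covariates), with -0.17 to 0.064, Mef2c to -0.16 (no lung libraries), and Srf to 0.042 (covariates) and 5.6e-05 (no lung libraries), with -0.095 to 0.031. The cause was not tested. The RA numbers are in the labels without a stated meaning. The 8 ratio differences whose groups did not overlap kept their sign in all 80 alternatives run, and of the other 16, none of which passed, 6 changed sign in at least 1 alternative.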
